A study of Arabidopsis thaliana with 12 samples.

Results

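Seedlings of an h2a.z mutant line of Arabidopsis thaliana were compared with wild-type Col seedlings after a shift to warmth, over all genes of the authors' deposited table that were expressed in these libraries. The 6 libraries compared, 3 of h2a.z and 3 of Col, were 6 of the 12 in the series, and 19550 of the 23387 genes in the table had a level of at least 1 TPM, the length-normalised share of all transcripts that the authors give per gene, in at least 3 of the 6 and were tested. All seedlings were 7 days old, had grown at 21 °C in short days and were held at 27 °C for 12 hours before whole-seedling RNA was taken. The h2a.z seedlings were labelled with the h2a.z genotype alone, and Col is the wild type. The remaining libraries, 3 of a line labelled h3.3kd and 3 of a line labelled h3.3kd;h2a.z, entered the statistical model for its estimate of the spread and are cited where their levels bear on a gene. The alleles behind h2a.z and the number of independent lines are named in none of the sources used here, so loss of H2A.Z and any other difference between this line and Col cannot be told apart. No library from seedlings kept at 21 °C was analysed here, and none of the values below is a response to temperature.

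H2A.Z is a variant of histone H2A that the SWR1 remodelling complex places into nucleosomes, mostly around the start of genes and over the bodies of genes that respond to the environment. In Arabidopsis it is known for its part in the response to ambient temperature and in keeping defence and other inducible genes at their resting level. The genes HTA8, HTA9 and HTA11 encode the forms found in seedlings.

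The transcripts of all 3 H2A.Z genes were low in the mutant line. HTA8 measured 17.5, 13.4 and 13.5 TPM in Col and 0, 0 and 0.0605 TPM in h2a.z. HTA11 measured 64.2, 41.8 and 32.8 TPM in Col and 1.59, 2.97 and 3.19 TPM in h2a.z. HTA9 kept more of its transcript, with 325, 211 and 228 TPM in Col against 31.3, 34.4 and 30.5 TPM in h2a.z. The h2a.z libraries therefore carried the genotype that their labels give, and no library of one group overlapped the other at any of the 3 genes. On the scale used for every fold change here, the difference of mean log2(TPM + 1), HTA9 was lower by a log2 fold change of -2.93 ± 0.22 (SE, n = 3 against 3; adjusted p = 4.9e-07). Adding 1 to each value makes these fold changes smaller than the ratio of the TPM values where a gene is low. A gene is called higher or lower below where limma's moderated test, adjusted over all 19550 genes by the Benjamini-Hochberg method, gave an adjusted p under 0.05.

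More genes stood higher than lower in the mutant. Of the genes tested, 2092 (10.7%) were called higher in h2a.z, 901 (4.61%) were called lower and 15.3% were called in either direction. The higher calls made up 69.9% of all calls, and 54.1% after quantile normalization, which makes the distribution of values alike in all libraries. The median log2 fold change was 1.08 over the genes called higher, -0.919 over those called lower and 0.046 over all genes tested. A change of 2-fold or more was reached by 1177 of the higher and 394 of the lower genes, and a change of 4-fold or more by 293 and 94. Leaving out h2a.z replicate 2 reduced the calls to 1475 higher and 533 lower, and 1270 higher and 440 lower genes kept a call in the 6 libraries alone and without any 1 of the 12 libraries, with h2a.z and Col not overlapping. Genes named below with a fold change and an adjusted p belong to these stable calls unless the text says otherwise. Their lack of overlap was therefore a condition of being named. Over all tested genes, the libraries did not overlap with h2a.z higher at 21.9% and with h2a.z lower at 12.5%.

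**Figure D1:**
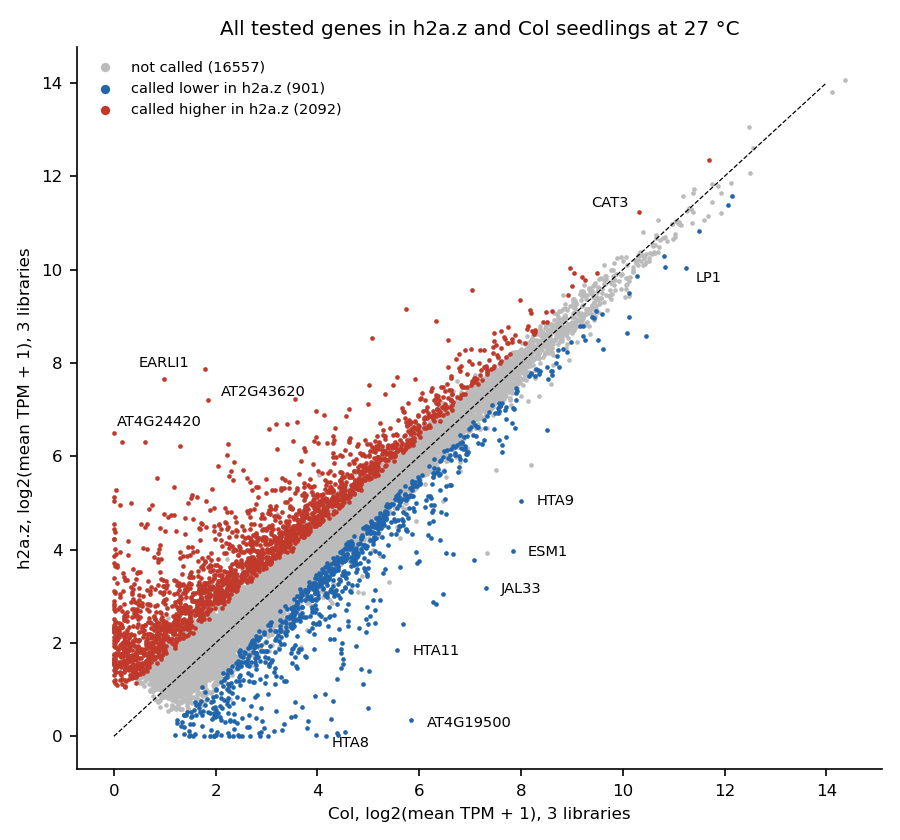
Mean level of each tested gene in the 3 h2a.z libraries (vertical axis, log2(mean TPM + 1)) against that in the 3 Col libraries (horizontal axis, same scale), with genes called higher and lower in colour and the dashed line marking equal levels. The 2092 genes called higher lie above the line, many of them near 0 on the Col axis, and the 901 called lower lie below it.

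The genes called higher were mostly weakly expressed in wild type. Their median level in Col was 4.93 TPM, against 16.2 TPM over all tested genes and 19.4 TPM over the genes called lower. In h2a.z the same genes had medians of 14.4 TPM for those called higher and 8.69 TPM for those called lower. The tested genes were also divided into 10 classes of 1955 by their level. Of the lowest class (median 1.65 TPM) 24.6% were called higher and 6.29% lower, against 7.83% and 4.6% of the highest class (median 165 TPM). The classes were made from the same 6 libraries after the filter, so the lowest can hold genes tested only through 1 genotype. This trend is therefore not a property of the genes alone. A gene below 1 TPM in every Col library had to reach 1 TPM in the h2a.z libraries to be tested at all, so the 407 of 451 such genes that were called higher, and the 109 of 126 genes below 1 TPM in every h2a.z library that were called lower, describe the filter as well as the genes. Among the genes called higher, 42 were listed at 0 in all 3 Col libraries, and 14 of those called lower were listed at 0 in all 3 h2a.z libraries. Genes named below that were under 1 TPM in every Col library, such as NATA1, PDF1.2, GSTU11, CYP705A32, CRK23 and WAK1, were likewise tested only through h2a.z. Genes under 1 TPM in every h2a.z library, such as HTA8, AT4G19500, AT4G19510, AT3G18535, AT4G36140, AT5G56380, MYB101 and TTN10, were tested only through Col. The adjusted p-values of both kinds of gene, and the list counts that include them, carry the same limit.

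The largest stable increases, ranked among genes with a name and at least 5 TPM in h2a.z, were of mixed kinds. They included small secreted proteins, seed proteins and enzymes of defence. Outside these groups were the RNA-binding AT4G24420, the ABC transporter-like AT3G21080, the F-box gene AT3G28330 and AT2G33420, of unknown function. The uncharacterised gene AT3G28320 was not in this ranking, although its run, described below, reached a log2 fold change of 6.49. EARLI1, which encodes a lipid-transfer-type protein of the cell wall, measured 0.696, 1.33 and 0.924 TPM in Col and 146, 155 and 302 TPM in h2a.z (log2 fold change 6.60 ± 0.55, adjusted p = 1.7e-06). AT4G24420, an RNA-binding protein gene, went from 0.112, 0.255 and 0 TPM to 63.0, 88.5 and 81.1 TPM (6.12 ± 0.18, adjusted p = 6.2e-11). The chitinase gene AT2G43620 rose from 3.39, 2.64 and 1.76 TPM to 122, 164 and 152 TPM (5.37 ± 0.34, adjusted p = 1.2e-07). In each of these genes the lowest h2a.z library lay far above the highest Col library. AT2G33420, annotated as a protein of unknown function, had closely matched mutant values, with 19.7, 20 and 19.9 TPM in h2a.z and no Col library above 0.0312 TPM. NATA1, an acyltransferase gene, stood at 0 in each Col library and measured 13.5, 24.4 and 63.5 TPM in h2a.z, so its mutant libraries differed from each other by more than those of AT2G33420.

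The largest stable decreases, among genes ranked by the same rule, removed nearly all of the transcript. The resistance-protein gene AT4G19500 measured 53.6, 55.5 and 60.5 TPM in Col and 0, 0.552 and 0.276 TPM in h2a.z (-5.52 ± 0.21, adjusted p = 1.3e-09). Its neighbour AT4G19510, a TIR-NBS-LRR gene of the same kind, went from 29.5, 28.9 and 34.3 TPM to 0.423, 0.579 and 0.554 TPM (-4.39 ± 0.27, adjusted p = 1.2e-07). Both stand next to the resistance genes AT4G19520 and AT4G19530, which were not called. AT3G18535, annotated as a tubulin-tyrosine ligase, had 20.5, 20.3 and 26.2 TPM in Col and 0, 0 and 0.219 TPM in h2a.z. The jacalin lectin gene JAL33 fell from 167, 146 and 158 TPM to 6.19, 7.18 and 10.8 TPM (-4.16 ± 0.22, adjusted p = 2.8e-08). ESM1, a GDSL-lipase-like protein that steers glucosinolate breakdown towards isothiocyanates, fell from 207, 269 and 207 TPM to 12.3, 16 and 15.7 TPM (-3.87 ± 0.16, adjusted p = 2.0e-09). The groups did not overlap at these genes by the rule that chose them.

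The line h3.3kd;h2a.z, which carries the h2a.z label as well, did not show every one of these levels. JAL33 was low there too, at 1.42 ± 0.414 TPM (SD, n = 3), and so was ESM1 at 0.637 ± 0.173 TPM. AT4G24420 stood at 74.5 ± 6.35 TPM, near its h2a.z mean of 77.5 TPM. AT4G19500 and AT4G19510, by contrast, stood at 65.5 ± 3.04 and 37.1 ± 3.11 TPM, near their Col means of 56.5 and 30.9 TPM. NATA1 and PDF1.2, both at 0 in Col, were listed at 0 in the h3.3kd;h2a.z libraries as well. The Col libraries serve both comparisons, and the difference between the lines was not tested. Some of the genes with the largest changes in h2a.z thus stood near their Col level in the other line with that label. Among genes named below, AT5G56380, AT1G11280 and CAT3 averaged 17.3, 23.5 and 1236 TPM there, near Col means of 20.1, 21.2 and 1280 TPM. ORA59, CRK23 and AT4G16857 averaged 0.332, 0.392 and 0.296 TPM there, against 12.3, 11.7 and 33.8 TPM in h2a.z. PR4, EXT4, GSTF9 and AT5G19890 averaged 51.2, 139, 506 and 0.695 TPM there, near Col means of 46.6, 131, 496 and 0.692 TPM. AT5G47250 and ABCA9, at 30.3 and 15.8 TPM, stood near their h2a.z means of 33.2 and 15.1 TPM. So did AT3G36659 and STP4, at 11.5 and 140 TPM against h2a.z means of 10.3 and 150 TPM. How many genes were of each kind was not counted. HTA9 itself averaged 87.2 ± 8.79 TPM in h3.3kd;h2a.z, against 32.1 TPM in h2a.z and 255 TPM in Col. Changes below are those of the h2a.z line alone.

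**Figure D2:**
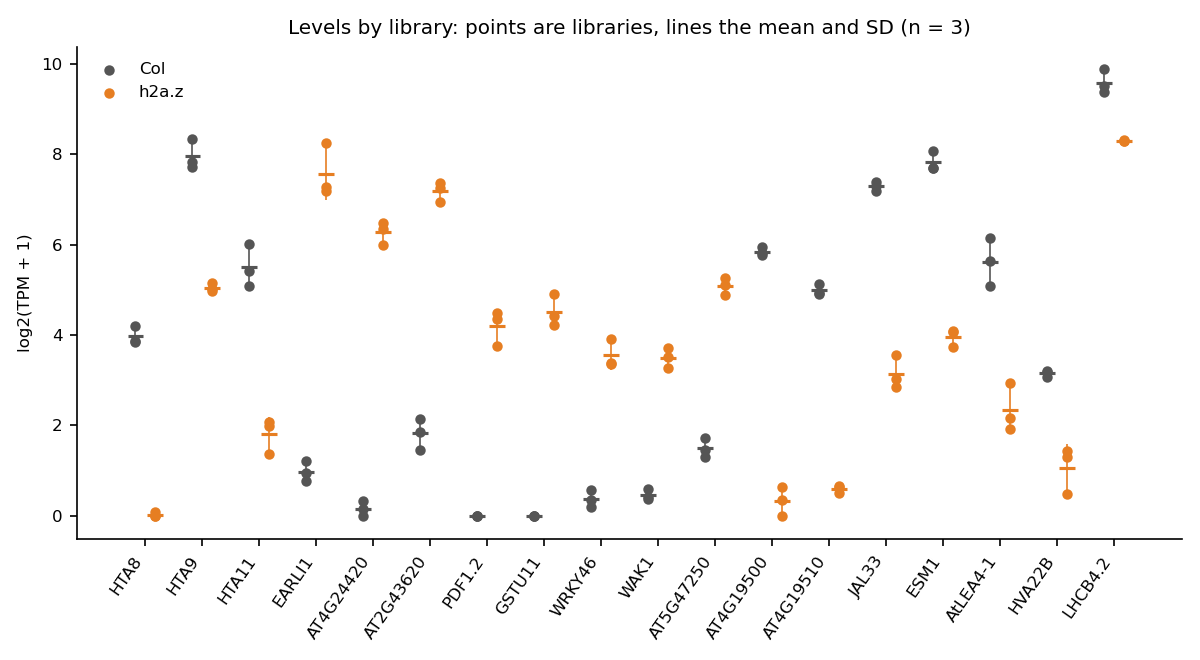
Level of 18 genes in each Col and h2a.z library, as log2(TPM + 1); points are libraries and the lines their mean and SD (n = 3). Apart from the H2A.Z genes, those shown were picked from the stable calls, which required that the h2a.z and Col libraries not overlap. PDF1.2 and GSTU11 are listed at 0 in all Col libraries.

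Many receptors of the immune system were higher in the mutant. Each count of list members, here and below, is to be read beside 10.7% called higher and 4.61% lower over all tested genes. Plants detect microbes with receptor kinases at the cell surface and with NLR proteins inside the cell. Of 11 wall-associated kinases tested, which bind pectin in the cell wall, 9 were called higher and 0 lower, with a median log2 fold change of 1.01. The summed level of this family was 30.9 ± 4.02 TPM in Col and 88.4 ± 5.99 TPM in h2a.z. WAK1 rose from 0.513, 0.335 and 0.292 TPM to 8.68, 10.4 and 12.1 TPM (3.04 ± 0.30, adjusted p = 7.8e-06), and WAK2 from 6.35, 5.91 and 7.11 TPM to 21.5, 28.0 and 24.7 TPM (1.78 ± 0.24, adjusted p = 1.2e-04). WAK3 was near 0 in Col and reached 2.78, 1.60 and 1.87 TPM. In all 3 the groups did not overlap, which the rule for stable calls required.

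Cysteine-rich receptor-like kinases, a family induced by pathogens and by oxidative stress, showed 17 of 28 members higher and 1 lower, with a median of 0.89. CRK23 was at 0, 0.137 and 0 TPM in Col and at 12.0, 13.2 and 10.1 TPM in h2a.z (3.60 ± 0.21, adjusted p = 6.0e-08). CRK5 was called higher with 2.40 ± 0.26 and CRK20 with 1.76 ± 0.23. Lectin receptor kinases had 20 of 50 higher and 3 lower, with a median of 0.45, and 16 higher and 8 lower after quantile normalization. One member went strongly the other way, since the S-locus lectin kinase AT1G11280 measured 21.4, 21.3 and 20.9 TPM in Col and 1.71, 2.23 and 1.37 TPM in h2a.z (-3.01 ± 0.19, adjusted p = 1.5e-07). The related kinases, AT4G27300 and AT2G19130, were higher by 2.1 ± 0.19 and 1.72 ± 0.16. Of 148 kinases with leucine-rich repeats 26 were called higher and 1 lower, with a median of 0.21. The higher count was 18, 16 and 20 without Col replicate 1, 2 or 3, and 15, 14 and 15 without h2a.z replicate 1, 2 or 3, and among its stable members were IOS1 (1.86 ± 0.26), AT5G59680 (1.71 ± 0.20) and AT5G59670 (1.65 ± 0.22). IOS1 is known as a partner of pattern receptors in immune signalling.

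NLR resistance genes changed in both directions. Of 123 tested, 35 were higher and 11 were lower, shares of 28.5% and 8.94% against 10.7% and 4.61% over all genes, with a median of 0.35. AT5G47250 rose from 1.76, 2.32 and 1.45 TPM to 33.6, 37.2 and 28.8 TPM (3.59 ± 0.19, adjusted p = 2.8e-08). AT4G16857 rose from 2.32, 2.08 and 1.95 TPM to 34.0, 30 and 37.3 TPM (3.48 ± 0.22, adjusted p = 1.2e-07). AT4G36140 was among the lower ones, from 10.6, 14.5 and 13.5 TPM to 0.0384, 0.225 and 0.121 TPM (-3.61 ± 0.24, adjusted p = 1.8e-07). The fold changes in this family thus ran from -4.39 to 3.59 among the members tested. Receptor-like proteins, which lack a kinase domain, had 8 of 35 higher and 4 lower. RLP6 was higher by 1.42 ± 0.21, and RLP42 and RLP34 were lower, with log2 fold changes of -2.1 ± 0.21 and -2.13 ± 0.24. The F-box proteins, another large and variable family, whose members select proteins for degradation, had 29 of 189 higher and 12 lower, shares close to those of all genes, with 26 and 22 after quantile normalization and 19 lower without h3.3kd replicate 2. Within them AT3G44120 rose from 1.81, 2.41 and 2.33 TPM to 20.1, 20.2 and 23.0 TPM, and AT5G56380 fell from 25.6, 18.0 and 16.8 TPM to 0, 0 and 0.0416 TPM.

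Part of the signalling genes and transcription factors of defence were called higher. WRKY factors, which bind the W box of defence promoters, had 19 of 53 members higher and 2 lower. WRKY46 measured 0.279, 0.479 and 0.139 TPM in Col and 9.49, 9.21 and 14.1 TPM in h2a.z (3.18 ± 0.31, adjusted p = 7.8e-06). WRKY48 and WRKY51 were higher by 2.32 ± 0.27 and 1.86 ± 0.24. Of 91 ERF and DREB factors, the family that carries ethylene and dehydration signals, 16 were higher and 4 lower. These were 17.6% and 4.4%, against 10.7% and 4.61% over all genes, so the lower share was that of the background. ORA59, which joins the jasmonate and ethylene signals, rose from 0.794, 1.59 and 0.0989 TPM to 12.7, 12.7 and 11.6 TPM (2.95 ± 0.34, adjusted p = 3.7e-05), and ERF2 from 1.97, 1.69 and 2.13 TPM to 7.84, 6.57 and 14.3 TPM (1.79 ± 0.27). DREB2A, a factor of heat and drought responses, fell from 18.0, 18.2 and 19.1 TPM to 7.50, 7.63 and 7.43 TPM (-1.19 ± 0.17, adjusted p = 2.1e-04). Calmodulin-like proteins and calcium-dependent kinases had 9 of 41 higher and 0 lower, the higher count falling to 5 without any of h2a.z replicates 1, 2 or 3 and to 6 without Col replicate 3. CML41 (2.08 ± 0.38), CML37 (1.49 ± 0.24) and CPK29 (1.23 ± 0.18) were among them.

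Other families of transcription factors gave shares near the background or counts that depended on the settings. NAC factors had 13 of 62 higher and 4 lower, but 7 higher without Col replicate 2, 6 without h2a.z replicate 3 and 7 after quantile normalization. NAC016 was higher by 1.3 ± 0.27 and NAC011 by 1.19 ± 0.21, and NAC100 was lower (-1.29 ± 0.26.) MYB factors had 12 of 106 higher and 8 lower, which became 8 higher and 18 lower after quantile normalization, and the higher count was 6, 8 and 7 without Col replicate 2, h2a.z replicate 2 and h2a.z replicate 3. The lower count was 5 without Col replicate 1 or h2a.z replicate 2 and 3 without h2a.z replicate 3. MYB15, an activator of phenylpropanoid genes in immunity, went from 0.127, 0 and 0 TPM to 8.34, 6.12 and 11.9 TPM (3.19 ± 0.23, adjusted p = 4.6e-07). MYB20 was higher by 1.29 ± 0.16, and MYB101 fell from 4.67, 7.37 and 5.70 TPM to 0.193, 0.330 and 0.435 TPM. Among bHLH factors 8 of 104 were higher and 5 lower, which became 7 and 10 after quantile normalization; BHLH100, a factor of the iron deficiency response, rose from 0.380, 0.348 and 0.303 TPM to 2.99, 3.79 and 9.63 TPM. Of 23 MADS-box factors 3 were higher, none of them stably, with 0 higher without h2a.z replicate 1 or after quantile normalization and 1 without Col replicate 1, Col replicate 2 or h2a.z replicate 2. The 2 lower ones were AT2G41440, at 11.3, 5.08 and 4.92 TPM in Col and 0 in all h2a.z libraries, and the floral repressor FLC, which fell from 10.3, 14.1 and 13.4 TPM to 4.13, 5.93 and 4.67 TPM (-1.20 ± 0.19, adjusted p = 5.4e-04).

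Proteins that act directly on microbes included genes listed at 0 in Col, which were tested only through their h2a.z levels. PDF1.2, an antifungal defensin under jasmonate and ethylene control, was listed at 0 in all Col libraries and at 12.6, 21.5 and 19.4 TPM in h2a.z. PDF1.2c and PDF1.3 were likewise at 0 in Col and reached 7.66, 13.3 and 7.55 TPM and 4.28, 5.43 and 8.02 TPM. Defensins and thionins together had 10 of 26 members higher and 4 lower, with a median of 0.009, so the strong members were not typical of the family. PDF1.2 and PDF1.2c are near-identical copies, as are other neighbouring members of the families described here, and how reads that fit more than 1 copy were assigned is not stated by the authors' labels. Among 38 chitinases, glucanases and other pathogenesis-related proteins 9 were higher and 4 lower. PR4 rose from 66.5, 33.3 and 40 TPM to 149.6, 189 and 286 TPM (2.14 ± 0.29, adjusted p = 1.5e-04), and PR5, a marker of salicylic acid signalling, from 3.43, 4.10 and 3.65 TPM to 15, 25.4 and 23.6 TPM (2.21 ± 0.26, adjusted p = 3.9e-05). PBS3, which makes the precursor of salicylic acid, was higher by 1.25 ± 0.29 (adjusted p = 0.0081), and after quantile normalization its adjusted p was 0.059.

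Jacalin-related lectins, which bind sugars, were split, with 7 of 24 members higher and 8 lower. AT1G52100 fell from 203, 216 and 170.3 TPM to 62.3, 65.1 and 74.2 TPM (-1.53 ± 0.12, adjusted p = 9.6e-07), and AT3G21380 from 6.28, 5.41 and 4.07 TPM to 0.137, 0.134 and 0.165 TPM (-2.43 ± 0.20, adjusted p = 1.5e-06). The legume lectin gene AT3G15356 moved the other way, from 33.3, 31.3 and 34.0 TPM to 425, 315 and 363 TPM (3.43 ± 0.25, adjusted p = 4.5e-07).

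Promoters are shown for 2 of the higher defence genes because both hold a GCC box, the sequence that ERF factors such as ORA59 bind, and for GSTU11 because it holds a W box. Each is the 250 bases before the annotated start, 5′ to 3′ on the gene's strand, from RefSeq's TAIR10.1 assembly, with the motif in capitals. PDF1.2 lies at chr5:17907639-17907888 (minus strand) with the GCC box starting at -222, ORA59 at chr1:1882657-1882906 (plus strand) with it at -230, and GSTU11 at chr1:26338819-26339068 (minus strand) with the W box at -77.
PDF1.2: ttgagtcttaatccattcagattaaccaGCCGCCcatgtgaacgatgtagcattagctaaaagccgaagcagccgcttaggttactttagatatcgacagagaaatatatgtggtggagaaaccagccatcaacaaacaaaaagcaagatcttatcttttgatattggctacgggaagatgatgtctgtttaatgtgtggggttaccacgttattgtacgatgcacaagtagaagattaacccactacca
ORA59: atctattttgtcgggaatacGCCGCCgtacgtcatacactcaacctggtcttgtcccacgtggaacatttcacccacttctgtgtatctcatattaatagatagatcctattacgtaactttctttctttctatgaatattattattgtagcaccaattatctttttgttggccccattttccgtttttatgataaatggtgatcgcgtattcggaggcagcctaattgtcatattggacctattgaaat
GSTU11: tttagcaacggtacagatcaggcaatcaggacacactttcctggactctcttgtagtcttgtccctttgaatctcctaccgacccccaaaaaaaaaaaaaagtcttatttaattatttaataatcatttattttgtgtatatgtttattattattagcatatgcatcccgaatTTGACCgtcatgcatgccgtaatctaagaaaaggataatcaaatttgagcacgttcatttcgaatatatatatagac

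Motif shares were counted over the 300 bases from 250 before to 50 after the start of 19456 tested genes, on both strands. The W box was counted in the form TTGACC alone. That form was found in 14.4% of all these promoters, in 16.9% of those called higher and in 14.5% of those called lower. Among the 293 higher by 4-fold or more it was in 21.8%. The GCC box (GCCGCC) was held by 2.61% of all promoters and 2.58% of the higher ones, with 4.78% among those 4-fold higher. A phosphate starvation motif (GNATATNC), a heat shock element and a TATA box (TATAAA) occurred in 6.17%, 0.514% and 51.5% of all promoters and in 6.99%, 0.909% and 55.9% of the higher ones. These shares are descriptions of letters in a fixed window, without a test.

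**Figure D3:**
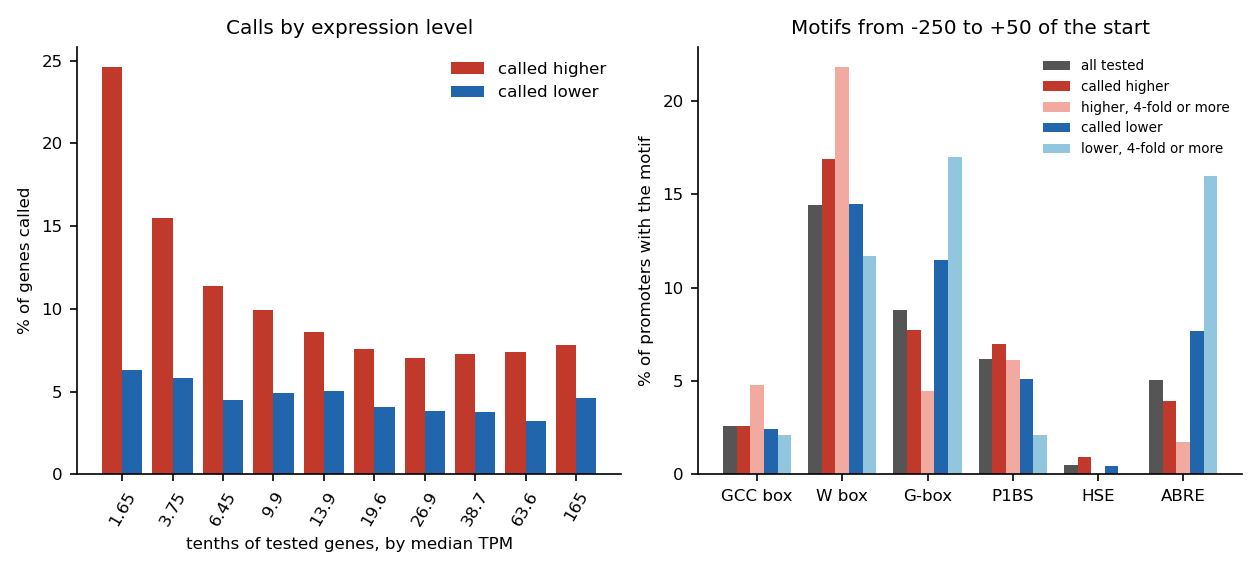
Left, percentage of genes called higher and lower in each of 10 classes of the tested genes by level, labelled with the class's median TPM; right, percentage of promoters (250 bases before to 50 after the start) holding each motif, for all tested genes and for the genes called. Higher calls fall from 24.6% in the lowest class to 7.83% in the highest, with classes made from the same libraries as the calls. The ACGTGTC form of the abscisic acid response element is in 16% of promoters lower by 4-fold or more against 5.05% of all.

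Enzymes that oxidise, conjugate and glycosylate small molecules were higher in large numbers. Of 153 cytochrome P450s, which oxidise hormones, defence compounds and foreign chemicals, 60 were higher and 9 lower, with a median of 0.51, and their summed level was 3272 ± 290 TPM in Col and 4617 ± 110 TPM in h2a.z. CYP71B19 rose from 3.04, 3.85 and 3.69 TPM to 24.7, 23.5 and 37.1 TPM (2.68 ± 0.20, adjusted p = 4.9e-07), and CYP71B36 from 2, 1.95 and 0.908 TPM to 20.9, 16.2 and 20.9 TPM (2.98 ± 0.25). CYP705A32 was listed at 0 in Col and measured 5.97, 6.55 and 6.95 TPM in the mutant. Of 47 glutathione transferases 17 were higher and 2 lower, and their summed level rose from 2733 ± 308 to 4811 ± 475 TPM. GSTU11 was at 0 in Col and at 17.7, 20.6 and 28.9 TPM in h2a.z. GSTF14 was higher by 3.28 ± 0.29, and GSTU8 was lower, from 37.9, 19.6 and 24.1 TPM to 3.20, 3.43 and 5.37 TPM (-2.47 ± 0.27).

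UDP-glycosyltransferases, which attach sugars to hormones and secondary metabolites, had 30 of 108 members higher and 2 lower. UGT87A2 rose from 21.3, 21.1 and 28.1 TPM to 69.3, 78.1 and 95.3 TPM (1.74 ± 0.15, adjusted p = 2.2e-06), with UGT76E2 higher by 1.85 ± 0.18 and AT1G05675 by 1.98 ± 0.23. Class III peroxidases, which build and stiffen the cell wall with hydrogen peroxide, had 27 of 57 higher and 3 lower, with a median of 0.57. AT5G19890 rose from 0.684, 0.652 and 0.739 TPM to 19.7, 34.5 and 35.8 TPM (4.15 ± 0.30, adjusted p = 4.0e-07), and AT5G39580 from 9.87, 6.89 and 11.7 TPM to 90.8, 95.4 and 120.4 TPM (3.31 ± 0.33). PRX52 was near 0 in Col and at 7.65, 11.1 and 23.5 TPM in h2a.z. Dioxygenases that depend on 2-oxoglutarate had 17 of 82 higher and 6 lower, with 11 higher without Col replicate 2 and 3 lower without Col replicate 1. In that family DIN11 rose from 0.751, 0.821 and 0.813 TPM to 42.5, 32.5 and 61.3 TPM (4.65 ± 0.32, adjusted p = 2.3e-07), AT1G52800 was higher by 2.20 ± 0.24 and AT5G05600 by 2.13 ± 0.27.

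Proteins of the cell wall and the cuticle changed in a mixed way. Pectin methylesterases and their inhibitors, which set the charge of pectin, had 18 of 61 higher and 3 lower, or 17 and 8 after quantile normalization. ATPMEPCRB rose from 1.91, 3.33 and 2.22 TPM to 30.9, 36.2 and 28.7 TPM (3.25 ± 0.30, adjusted p = 4.5e-06), and AT3G36659 from at most 0.311 TPM to 12.4, 10.1 and 8.31 TPM (3.31 ± 0.21), whereas AT3G27980 measured 5.01, 3.02 and 5.38 TPM in Col and 0 in all h2a.z libraries. Xyloglucan transglucosylases (XTH) had 8 of 26 higher and 1 lower, with the higher count between 3 (without h2a.z replicate 1) and 8; it was 4 without Col replicate 1, 5 without Col replicate 2, 4 without h2a.z replicate 2 and 5 without h2a.z replicate 3. XTH18 rose from 17.6, 12.4 and 21.4 TPM to 84.2, 77.6 and 69.2 TPM (2.13 ± 0.27), XTH16 by 1.12 ± 0.18, and XTH20 by 1.76 ± 0.39, the last with an adjusted p of 0.053 at a pseudocount of 0.1. Expansins, which loosen walls, had 7 of 24 higher and 3 lower. EXPA12 and EXLA2 were higher by 1.52 ± 0.23 and 0.92 ± 0.17, and EXPA2 was lower (-1.92 ± 0.26.) Polygalacturonases and pectate lyases had 5 of 49 higher and 5 lower, or 10.2% each, the higher share being near that of all genes. These counts ranged from 3 to 6 and from 2 to 5 when 1 library was left out. AT59 (1.33 ± 0.24) and AT3G15720 (1.39 ± 0.32) were higher and PGAZAT was lower (-1.97 ± 0.30).

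Arabinogalactan proteins and extensins, the glycoproteins of the wall, had 10 of 68 members higher and 3 lower (14.7% and 4.41%), shares close to those of all genes. Without h2a.z replicate 2 the higher count was 6. EXT4 rose from 90.4, 125 and 177 TPM to 642, 672 and 955 TPM (2.55 ± 0.32, adjusted p = 7.5e-05). AGP5 was higher by 2.93 ± 0.28, and AGP30, expressed in roots, fell from 5.11, 5.57 and 8.09 TPM to 0.128, 0 and 0 TPM. Lipid transfer proteins were split, with 13 of 51 higher and 12 lower; without h2a.z replicate 2 the counts were 8 and 7, and without h2a.z replicate 3 they were 10 and 7. AT4G22610 rose from 3.21, 1.31 and 3.66 TPM to 20.1, 31.0 and 31.8 TPM (2.98 ± 0.32), and AT5G46900 fell from 66.2, 102 and 93.5 TPM to 15, 6.22 and 0.684 TPM (-3.91 ± 0.63, adjusted p = 5.9e-04). GDSL lipases had 8 of 54 higher and 8 lower, with AT1G28660 (1.25 ± 0.12) and AT4G16233 (2.28 ± 0.26) among the higher and ESM1 among the lower.

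Transporters tended to be higher where they carry solutes and mixed where they carry water. Sugar transporters had 9 of 24 higher and 0 lower. PMT5, a polyol and monosaccharide carrier, rose from 49.0, 59.5 and 70.5 TPM to 194, 196 and 214 TPM (1.75 ± 0.16, adjusted p = 3.6e-06), the hexose importer STP4 from 53.1, 66.3 and 73.6 TPM to 137, 158 and 155 TPM (1.22 ± 0.14), and SUC5 by 1.57 ± 0.21. MATE and ABC transporters, which export metabolites, had 38 of 146 higher and 6 lower. AT3G21080, annotated as ABC transporter-like, measured 0.122, 0.139 and 0 TPM in Col and 34.0, 27.5 and 28.2 TPM in h2a.z (4.83 ± 0.21, adjusted p = 3.0e-09), and ABCA9 0.048, 0 and 0 TPM against 15.3, 15.9 and 14 TPM (3.98 ± 0.19, adjusted p = 9.7e-09). The MATE gene AT3G23550 was higher by 3.56 ± 0.26. Nitrate and peptide transporters had 6 of 24 higher and 0 lower, with 3 higher without h2a.z replicate 3; NRT1.8, which takes nitrate out of the xylem, rose from 0.791, 0.654 and 1.45 TPM to 6.07, 6.39 and 12.4 TPM (2.20 ± 0.27), and the peptide carriers OPT1 and OPT6 rose by 1.75 ± 0.22 and 1.49 ± 0.23. Aquaporins, the water channels, had 5 of 30 higher and 5 lower, and the higher count was 1 without h2a.z replicate 3, 2 without h2a.z replicate 2, and 3 without Col replicate 1 or h2a.z replicate 1. TIP2;3 fell from 95, 73.0 and 88.4 TPM to 28.6, 28.8 and 24.1 TPM (-1.61 ± 0.22), TIP2;2 by a log2 fold change of -1.11 ± 0.15, and PIP2B from 486, 390.4 and 409 TPM to 225, 252 and 242 TPM (-0.83 ± 0.13).

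Auxin-regulated genes gave no direction as a group. SAUR genes, which respond fast to auxin and promote cell expansion, had 6 of 57 higher and 7 lower. AT4G34790 was higher by 1.42 ± 0.26, while SAUR28 (-1.76 ± 0.37) and AT3G12955 (-1.53 ± 0.33) were lower. Aux/IAA and GH3 genes had 5 of 42 higher and 4 lower, which became 3 and 6 after quantile normalization, with GH3.9 higher by 1.07 ± 0.24. Counts of this size moved by more than 1.5 times when a single library was left out, between 3 and 8 higher for SAUR genes (3 without Col replicate 3, h2a.z replicate 1 or h2a.z replicate 2) and between 2 (without h2a.z replicate 2) and 5 higher for Aux/IAA and GH3 genes. Quantile normalization also raised the lower counts of cytochrome P450s to 16, MATE and ABC transporters to 11, dioxygenases to 11, chitinases and related proteins to 7, arabinogalactan proteins and extensins to 6, UDP-glycosyltransferases and chaperones to 5 each, and XTH genes to 3. In most lists the smaller of the counts was a few genes and often moved by as much.

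**Figure D4:**
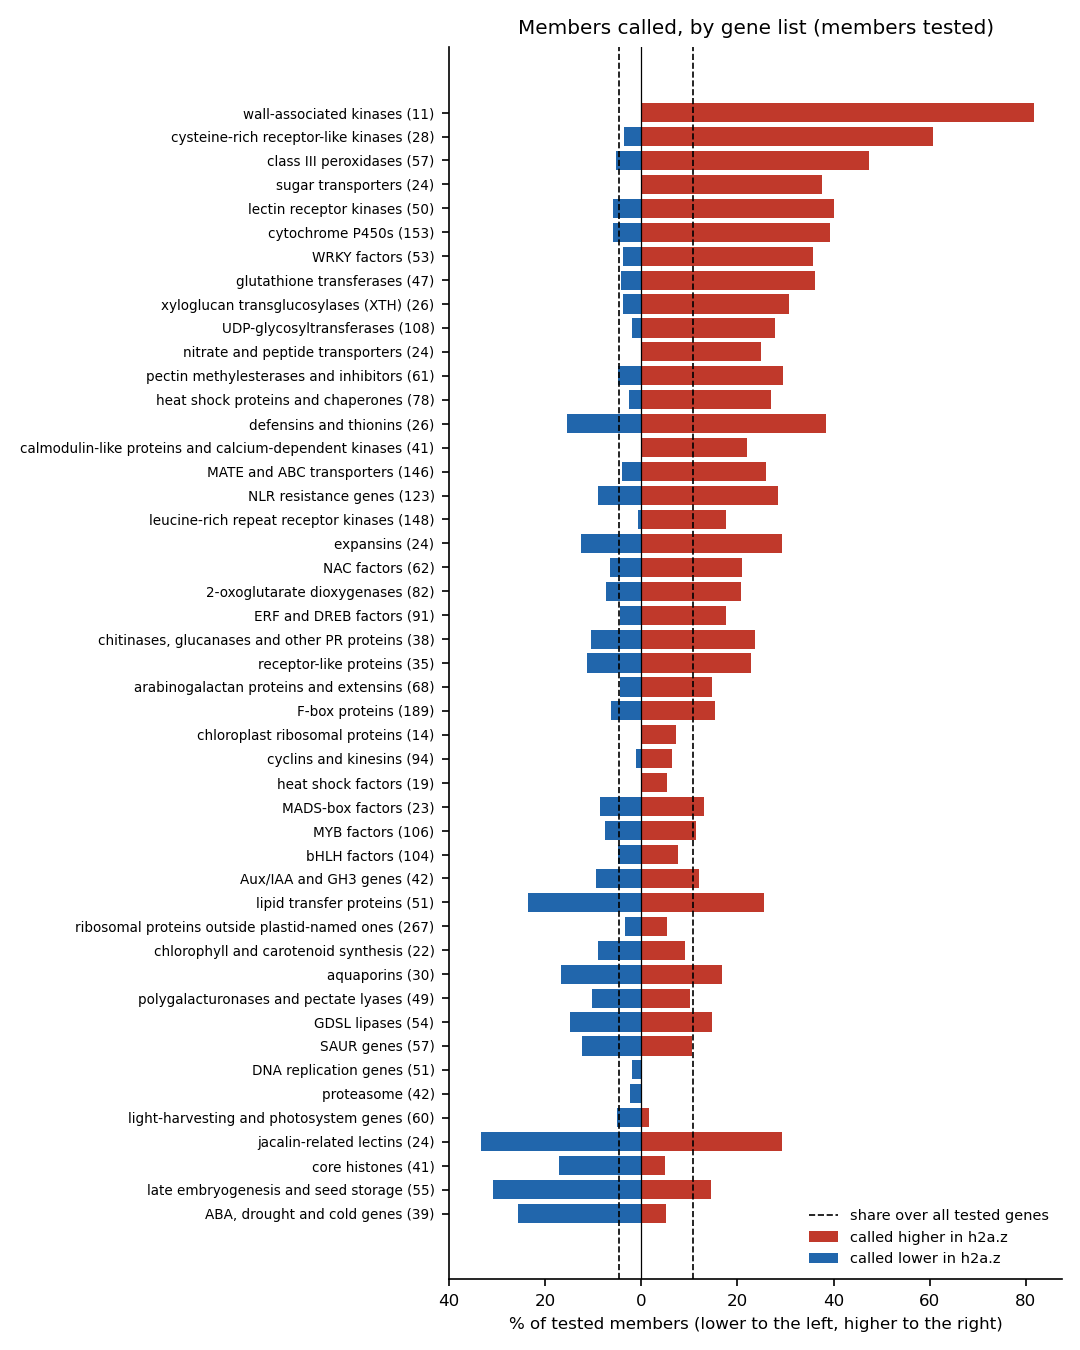
Percentage of tested members called higher (to the right) and lower (to the left) in h2a.z for each gene list, with the number of members tested in brackets and the share of all tested genes called, 10.7% and 4.61%, marked. Wall-associated kinases, cysteine-rich kinases and peroxidases have the highest shares called higher, while jacalin-related lectins (33.3%), late embryogenesis and seed storage proteins (30.9%) and abscisic acid genes (25.6%) have the highest shares called lower.

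Seed and stress proteins changed in both directions. The list of late embryogenesis abundant (LEA) and seed storage proteins had 8 of 55 members higher and 17 lower. These were 14.5% and 30.9%, so the higher share was close to the 10.7% over all genes. The higher members included the seed stores and oil body proteins CRA1, CRU3, PAP85, SESA5, OLEO1 and OLEO3, and the lower ones were mostly LEA proteins, which protect cells during drying, a division made after the values were seen. The oil body gene OLEO2 was not called, at 4.93, 8.80 and 3.87 TPM in Col and 2.06, 7.91 and 2.58 TPM in h2a.z (-0.51, adjusted p = 0.44), and the seed store genes CRU2 and SESA1 were too low to be tested. CRA1 went from 0.154, 0.294 and 1.13 TPM to 101, 25.8 and 106 TPM (5.5 ± 0.48, adjusted p = 2.4e-06), CRU3 from 0.0962, 0 and 0 TPM to 46.5, 15.4 and 50.7 TPM (5.06 ± 0.43), and PAP85 from 0.146, 0 and 0.630 TPM to 33.4, 41.4 and 17.9 TPM (4.62 ± 0.48). The 3 mutant libraries differed widely at each of these seed genes, although all lay above Col. AtLEA4-1 fell from 70.1, 32.9 and 48.7 TPM to 3.46, 6.66 and 2.80 TPM (-3.28 ± 0.32, adjusted p = 8.5e-06), and LEA7 fell by a log2 fold change of -2.96 ± 0.60 (adjusted p = 0.0036).

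Genes induced by abscisic acid (ABA), drought and cold were mostly lower where they were called, with 10 of 39 lower and 2 higher. The lower count was 5 without Col replicate 3, 6 without h2a.z replicate 1 and 5 without h2a.z replicate 2. HVA22B, which encodes a membrane protein induced by ABA, fell from 7.41, 8.15 and 8.19 TPM to 0.390, 1.45 and 1.69 TPM (-2.09 ± 0.30, adjusted p = 2.3e-04), and HVA22A from 53.5, 45.7 and 49.1 TPM to 29.0, 23.6 and 20.1 TPM (-1.01 ± 0.14). LTI65, also known as RD29B, fell from 49.0, 49.7 and 43.1 TPM to 14.6, 29.7 and 16.9 TPM (-1.23 ± 0.21, adjusted p = 8.1e-04). ABF3, a factor that binds the ABA response element, was lower (-0.86 ± 0.20, adjusted p = 0.0076). The other lower members were HVA22K, the dehydrin gene RAB18, P5CS1, PP2CA, ABI1 and AFP3, and the higher ones were COR413IM1 and COR15B.

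The promoters of 3 lower genes of these groups are shown because each holds 1 form of the ABA response element, ACGTGTC. It reads GACACGT where it lies on the other strand, and other forms were neither counted nor marked. They are the 250 bases before the annotated start in the same assembly, 5′ to 3′ on the gene's strand with the element in capitals. AtLEA4-1 lies at chr1:11774234-11774483, HVA22B at chr5:25089841-25090090 and LTI65 at chr5:21236771-21237020, all on the plus strand, with the element starting at -106, -29 and -10.
AtLEA4-1: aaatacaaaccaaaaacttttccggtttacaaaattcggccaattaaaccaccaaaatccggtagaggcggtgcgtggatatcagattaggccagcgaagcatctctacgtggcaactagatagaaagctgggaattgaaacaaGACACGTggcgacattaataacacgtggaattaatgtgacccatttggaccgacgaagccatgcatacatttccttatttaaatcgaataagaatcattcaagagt
HVA22B: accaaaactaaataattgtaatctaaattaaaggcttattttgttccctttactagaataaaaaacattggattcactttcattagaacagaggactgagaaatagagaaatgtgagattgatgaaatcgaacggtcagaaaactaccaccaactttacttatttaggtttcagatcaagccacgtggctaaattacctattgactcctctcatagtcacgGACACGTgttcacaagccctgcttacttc
LTI65: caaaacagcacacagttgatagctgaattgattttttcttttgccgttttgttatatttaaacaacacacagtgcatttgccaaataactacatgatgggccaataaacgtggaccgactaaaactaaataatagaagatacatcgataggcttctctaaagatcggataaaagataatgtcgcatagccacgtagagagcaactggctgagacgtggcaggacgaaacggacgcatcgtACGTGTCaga

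Over all promoters this form of the element was found in 5.05% (982 of 19456) and in 7.66% of those called lower. It was in 16% (15 of 94) of those lower by 4-fold or more and in 3.92% of those called higher. The G-box (CACGTG) showed similar shares, with 8.8% of all promoters, 11.5% of the lower, 17% of the 4-fold lower and 7.75% of the higher. The motifs share bases in part, since 574 of the 982 promoters with the ABA element, and 10 of the 15 among the 4-fold lower genes, had it overlapping a G-box.

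The lists of photosynthesis, pigment synthesis and ribosomal proteins each had a smaller share called higher than the 10.7% over all genes. Of 60 light-harvesting and photosystem genes 1 was higher and 3 were lower, with a median of -0.21. The lower count was 1 without h2a.z replicate 2 or h2a.z replicate 3, 6 without h3.3kd replicate 1 and 5 without h3.3kd replicate 2, and the higher count was 0 without any 1 of 10 libraries. Their summed level was 113000 ± 5390 TPM in Col and 95330 ± 2750 TPM in h2a.z. LHCB4.2, an antenna protein of photosystem II, fell from 944, 732 and 662 TPM to 318, 313 and 313 TPM (-1.29 ± 0.22, adjusted p = 0.0011). Chlorophyll and carotenoid synthesis had 2 of 22 higher, with HEMA3 at 1.19 ± 0.24, and 2 lower. The lower share was 9.09% against 4.61% over all genes, and the lower count was 0 without Col replicate 1 or h2a.z replicate 2. Ribosomal proteins outside the plastid-named ones had 14 of 267 higher and 9 lower; the higher count was 27 without Col replicate 1, 9 without Col replicate 3, 8 without h2a.z replicate 2 and 9 without h2a.z replicate 3, and the lower count ranged from 4 to 13. Their largest changes were in single copies, with AT2G40010 falling from 14.2, 25.8 and 16.2 TPM to 1.05, 0.140 and 0.864 TPM and AT2G27535 rising from 0.125, 0 and 0.124 TPM to 2.39, 4.80 and 3.59 TPM. Plastid-named ribosomal proteins had 1 of 14 higher, AT2G28815 at 1.44 ± 0.27, and 0 lower. RPL12-C, a plastid protein not named as such in the annotation, was counted in the other list and is described with the abundant transcripts below.

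The proteasome had 1 of 42 members called, RPT5B, which was lower (-0.63 ± 0.15, adjusted p = 0.008). Among 51 DNA replication genes the one call was TTN10, a GINS complex subunit, which fell from 9.85, 4.71 and 5.05 TPM to 0.0503, 0.541 and 0.182 TPM (-2.54 ± 0.33, adjusted p = 9.3e-05). Cyclins and kinesins had 6 of 94 higher and 1 lower, with 3 higher and 4 lower after quantile normalization and 2 or 3 higher without Col replicate 1, Col replicate 3, h2a.z replicate 1 or h2a.z replicate 2; AT1G20590, a cyclin listed at 0 in Col, reached 3.88, 2.07 and 3.02 TPM. Core histones had 2 of 41 higher and 7 lower, the latter including the 3 H2A.Z genes, and 5 higher without Col replicate 1. Apart from these, the H3 genes AT3G27360 and HTR11 fell by log2 fold changes of -1.83 ± 0.41 and -1.70 ± 0.34. The H2B gene HTB1 rose from 104, 87.3 and 77.1 TPM to 174, 154 and 175 TPM (0.91 ± 0.17, adjusted p = 0.0018). The histone gene AT3G53650 rose from 5.31, 5.55 and 4.84 TPM to 17.1, 19.7 and 18.2 TPM (1.63 ± 0.18).

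Chaperones, the proteins that keep others folded in heat, were higher in 21 of 78 members and lower in 2. The small heat shock genes AT5G47600 and AT5G47590, which lie side by side, rose from 4.25, 3.13 and 3.69 TPM to 56.3, 74.6 and 60.7 TPM (3.79 ± 0.32, adjusted p = 1.8e-06) and from 4.42, 2.37 and 4.96 TPM to 50.8, 56.6 and 43.5 TPM (3.42 ± 0.33, adjusted p = 6.8e-06). HSP81-2, a member of the HSP90 family, fell from 157, 247 and 186 TPM to 61.1, 78.1 and 84.4 TPM (-1.37 ± 0.17, adjusted p = 7.3e-05). Of 19 heat shock factors, HSFB3 was the one called, rising from 0.626, 0.614 and 0.446 TPM to 5.80, 4.18 and 6.78 TPM (2.06 ± 0.25, adjusted p = 5.1e-05).

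Some changes were moderate in fold and large in transcripts. CAT3, a catalase that removes hydrogen peroxide, rose from 1012, 1285 and 1543 TPM to 2433, 2390.4 and 2443 TPM (0.94 ± 0.16, adjusted p = 8.2e-04). GSTF9 and GSTF10 rose from means of 496 ± 48.9 and 253 ± 45.3 TPM to 1052 ± 125 and 651 ± 77.0 TPM. DIN10, of the raffinose synthase family, and the extensin-like gene AT2G43150 rose by 0.65 ± 0.15 and 0.96 ± 0.17. In the other direction LP1, a lipid transfer protein of the epidermis, fell from 2470.4, 2457 and 2326 TPM to 1061, 984 and 1077 TPM (-1.22 ± 0.19, adjusted p = 4.6e-04). RPL12-C, a plastid ribosomal protein, fell from 1011, 1664 and 1508 TPM to 398, 379 and 361 TPM (-1.84 ± 0.16, adjusted p = 2.7e-06), while it averaged 1446 ± 82.2 TPM in h3.3kd;h2a.z. The carbonic anhydrase CA1 (-0.76 ± 0.18), AT4G23670 (-1.43 ± 0.20), the wall linker protein CWLP (-1.06 ± 0.25) and the myrosinase TGG1 (-0.62 ± 0.11), which cleaves glucosinolates, fell too. The plastid glutamine synthetase GS2 was lower (-0.52 ± 0.12, adjusted p = 0.0075), and a fit of the 6 libraries with the replicate number as a block, added after the data were seen, gave an adjusted p of 0.11.

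Neighbouring genes shared a call in a minority of cases, though in a larger share than over all genes. The next tested gene along the chromosome was also called higher for 16.6% (347 of 2090) of the genes called higher, against 10.7% of all genes, and also lower for 9.43% (85 of 901) of those called lower, against 4.61%. In all there were 74 runs of at least 3 neighbouring tested genes with the same call, 59 higher and 15 lower. Many of these runs were gene families in tandem, so their members share sequence and may share reads. On chromosome 4, AZI1, EARLI1, AT4G12490 and AT4G12500, all of the lipid-transfer type, were higher by 3.55 to 6.60, and the next 2 genes of the same type, AT4G12510 and AT4G12520, were called lower, though AT4G12510 lost the call without some libraries. AZI1, which primes systemic immunity, rose from 5.36, 14.7 and 12.5 TPM to 127, 142 and 178 TPM (3.75 ± 0.56). The run ended with the change of sign and not with a return to wild-type levels.

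A second run, on chromosome 3, held genes of different kinds. It ran from AT3G28310 through AT3G28320 and the F-box gene AT3G28330 to the galacturonosyltransferase-like gene GATL10, with log2 fold changes from 1.67 to 6.49. AT3G28320, an uncharacterised gene, was at 0 in all Col libraries and at 109, 76.9 and 82.7 TPM in h2a.z, and AT3G28330 was at 0 in Col and at 20.6, 21.7 and 20.2 TPM. The tested gene just before it, AT3G28270, was called lower. The P450 genes CYP71B19, CYP71B20, CYP71B22, CYP71B23 and CYP71B3 formed a higher run (0.46 to 3.60) that was followed by the lower CYP71B24 and AT3G26240. The berberine-type oxidoreductases from AT1G26380 to AT1G26420 were higher by 2.26 to 4.31, with AT1G26390 at 0.610, 0 and 3.22 TPM in Col and 25.4, 30.6 and 62.8 TPM in h2a.z; AT1G26380 and AT1G26410 lost the call without some libraries. Other higher runs were WAK3, WAK1 and WAK2 (1.59 to 3.04), CRK11 to CRK14 (1.03 to 1.62), DTX1 to AT2G04090 (0.94 to 2.54), AT5G22520 to AT5G22580 (0.97 to 3.11), and MES7, MES8, ACL, MES3 and MES1 (0.77 to 1.24). In the glutathione transferase run of GSTF7, GSTF6 and GSTF5 (2.40 to 4.14) Col was itself variable, with GSTF6 at 50, 5.24 and 101 TPM in Col against 551, 490.2 and 665 TPM in h2a.z, and GSTF7 lost the call without some libraries.

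Lower runs were fewer and included the jacalin lectins AT1G52050 to AT1G52070 (-3.37 to -1.85), GOS11 to AT1G15890 (-4.12 to -1.07), VAMP728 to RLP42 (-2.1 to -1.11) and AT3G08910 to LHCB4.2 (-1.29 to -0.63). Calls were spread over all chromosomes, with at least 10.1% of the genes of each called higher and 3.93% to 5.27% called lower. In windows of 100 tested genes the highest count of higher calls was 21. A window on chromosome 4 from AT4G16180 to AT4G17300 held 15 lower genes, and one on chromosome 3 from AT3G25140 to AT3G26490 held 15 lower and 20 higher. The latter lay in a stretch of adjoining windows, from AT3G21060 to AT3G29250, with 10, 8, 14, 15, 13 and 11 lower genes. Each window after that stretch on chromosome 3 held at most 5. Lower calls were thus uneven within this chromosome, and the cause was not tested.

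**Figure D5:**
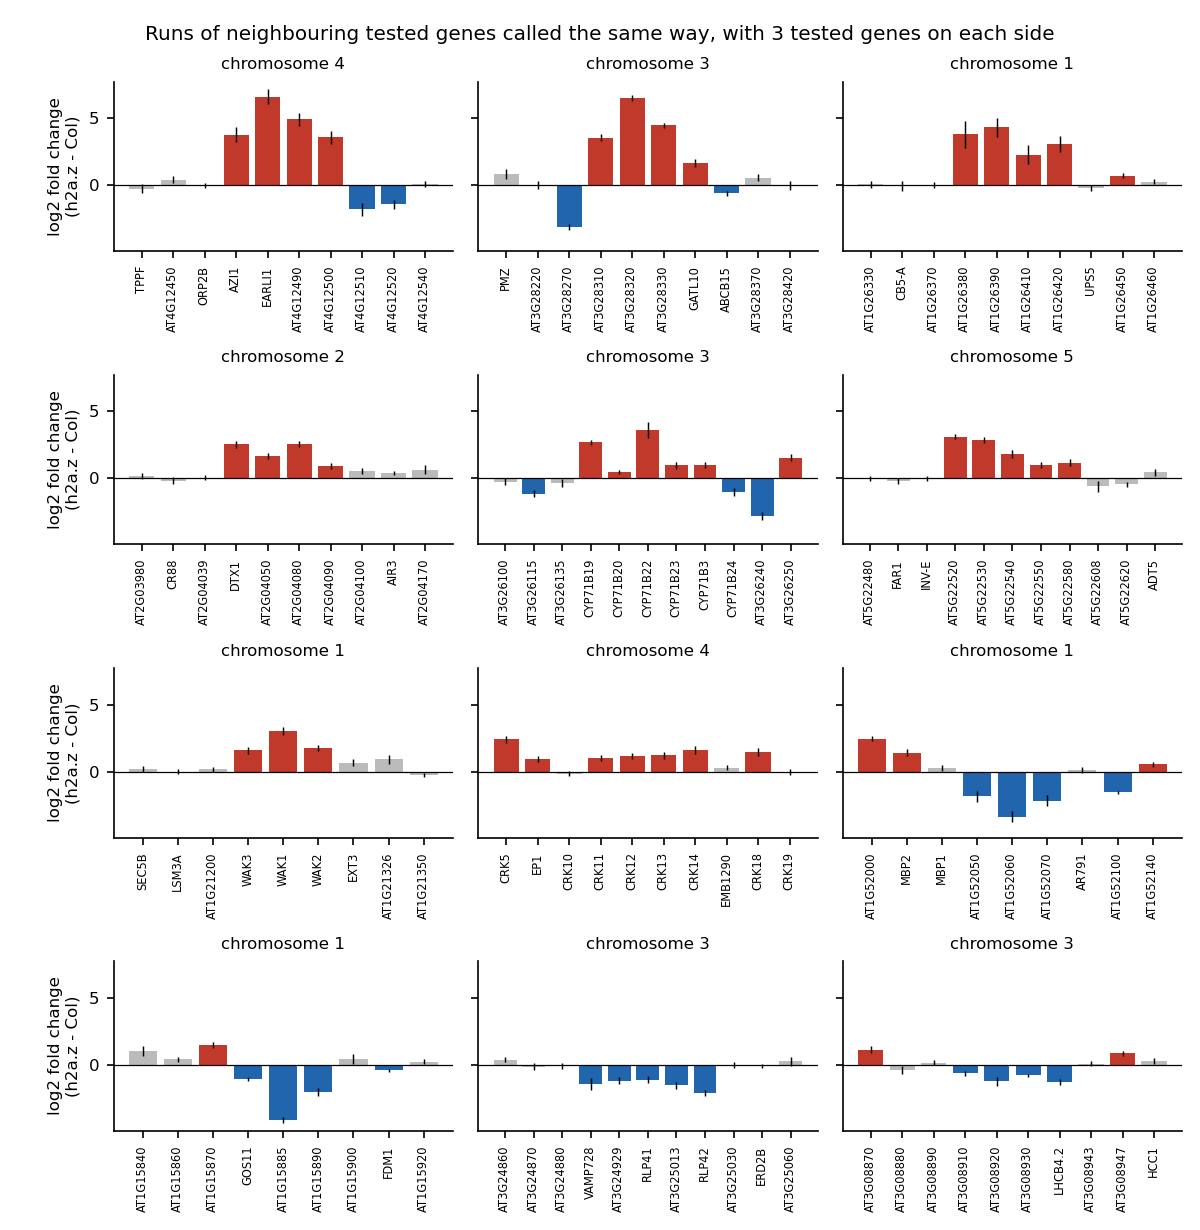
Log2 fold change (h2a.z minus Col, of TPM + 1) of each tested gene in 12 runs of neighbours with the same call and of 3 tested genes on either side, in chromosome order; error bars are SE, red is called higher, blue called lower and grey not called. Beside the EARLI1 run the genes AT4G12510 and AT4G12520 are lower, and beside the CYP71B run CYP71B24 and AT3G26240 are lower.

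Markers of tissues moved in part with the genotype, and in whole seedlings fewer cells of a type and less RNA per cell cannot be told apart. Of 5 leaf mesophyll markers 1 (CA1) was called lower, and their summed level ranged from 40600 to 49600 TPM in Col and from 34500 to 37500 TPM in h2a.z. Of 5 root hair and epidermis markers 1, IRT1, was called higher (adjusted p = 0.025, a call lost without some libraries), and the sums were 46.6 to 63.0 TPM in Col and 80.5 to 92.1 TPM in h2a.z. IRT1, an iron uptake gene, carried the larger sum, with means of 28.4 TPM in Col and 64.5 TPM in h2a.z. COBL9, EXPA7 and EXPA18 had lower means in h2a.z (3.93, 8.46 and 5.27 TPM) than in Col (4.70, 12.7 and 8.10 TPM) and were not called. None of 5 other root markers was called, NRT2.1 being under 1 TPM in all 6 libraries, with sums of 1880 to 2370 TPM and 1440 to 1980 TPM. PYK10 carried most of that sum, with means of 2085 TPM in Col and 1659 TPM in h2a.z. SCR and SHR had higher means in h2a.z (44.3 and 29.2 TPM) than in Col (38.0 and 21.4 TPM). CASP1 had a lower mean (26.3 TPM in h2a.z, 37.7 TPM in Col). The 6 seed and embryo markers summed to 5.0 to 9.2 TPM in Col and 54.8 to 162 TPM in h2a.z, with CRA1, CRU3 and OLEO1 called higher and SESA1 under 1 TPM in all 6 libraries. The 3 guard cell markers summed to 1070 to 1240 TPM and 708 to 785 TPM, with TGG1 lower. TGG1, which also marks myrosin cells, carried most of that sum, with means of 1114 TPM in Col and 721 TPM in h2a.z. FAMA (17.3 and 13.9 TPM) and MYB60 (13.4 and 9.85 TPM) were not called. Of 5 pollen and flower markers VGD1 was at 0 in all 6 libraries, AP1, AP3 and AG were under 1 TPM, and PI was called higher (adjusted p = 0.02, a call lost without some libraries). The seedling label thus had leaf and root markers present and flower markers near 0, and the part of tissue make-up in the gene groups above was not tested.

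The libraries of a genotype were alike. Across the tested genes, which are not independent replicates, the mean correlation of log2(TPM + 1) was 0.973 between Col libraries, 0.982 between h2a.z libraries and 0.929 between a Col and an h2a.z library. Between 21200 and 22019 genes were above 0 in each library. The depth of the libraries is unknown, because TPM values sum to the same total in each. Whether the 3 replicates of a genotype came from separate plantings is not stated, so the p-values measure the spread between these samples, which may be technical.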

How the data were processed

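RNA-seq of whole seedlings was analysed from 1 table of TPM values per gene that the authors deposited; no counts were used here. Per the submitters' processing notes, tools named are fastp 0.20.1, HISAT2 2.1.10, HTSeq 0.11.2 and DESeq2 1.26.0, with the TAIR10 genome; which of them made the TPM values, the treatment of multiply mapping reads and the strand setting are stated in none of the sources used here. Per the labels' protocols, RNA was taken with a Takara MiniBEST kit and libraries were made with NEBNext Ultra reagents. TPM keeps no depth, so the counting precision of each value is unknown.

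Genes with TPM of at least 1 in at least 3 of the 6 h2a.z and Col libraries were tested on log2(TPM + 1) with limma 3.58.1 in R 4.3.3, as 1 model of 4 genotype means over 12 libraries with a trended variance, and p-values were adjusted by the Benjamini-Hochberg method. No pair of columns was identical. The test was tested on simulated data with known answers.

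The comparison, the gene lists and the rules were chosen with earlier results of these data known, and the ABA list was added after the design. Names and gene order came from RefSeq's TAIR10.1 annotation, which matched 23235 of 23387 IDs and 19457 of those tested. Genes named are the H2A.Z genes; the 15 stable calls with the largest fold change and the 8 with the largest difference of TPM each way, the former with a name and at least 5 TPM in the higher genotype; from each list, up to 3 stable members by smallest adjusted p; and members of runs. Others, such as the remaining called members of a list, were named after their values were seen.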

Additional observations from a re-analysis of the deposited data

How the results depend on the processing

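The counts kept their direction under every alternative run. Against 2092 genes higher and 901 lower, other settings gave 1737 and 799 (pseudocount 0.1), 1989 and 872 (pseudocount 0.5), 2370 and 945 (no filter on low values), 1425 and 670 (at least 5 TPM), 2000 and 1078 (median-ratio rescaling), 2203 and 872 (6 libraries alone) and 2088 and 904 (robust variance). Quantile normalization gave 1921 and 1631, which moved the median over all genes from 0.046 to -0.037 (log2); 1841 of the genes called higher and 895 of those called lower were kept, and the cause of the added lower calls was not tested. Requiring 2-fold left 1177 and 394. Leaving out 1 library gave 1475 to 2658 higher and 533 to 1263 lower, both lowest without h2a.z replicate 2 and highest without h3.3kd replicate 2. The replicate numbers did not pair the groups compared: the deviations of same-numbered Col and h2a.z libraries correlated by -0.0157, 0.0496 and -0.1016. Those of Col and h3.3kd, which are also in the model, correlated by 0.3295, 0.2297 and 0.1218. With the replicate number as a block the counts were 2151 and 905, or 1930 and 728 in the 6 libraries alone, a fit added after the data were seen. The 153 genes named by the rule were chosen as stable to single libraries and to the fit on 6 libraries, so those settings could end no call of theirs; under the others GS2, XTH20 and PBS3 lost it and 0 reversed. Genes outside that rule, such as AT4G12510, AT1G26380, AT1G26410, GSTF7, IRT1 and PI, lost theirs without some libraries. Of 2162 list counts 1850 stayed within 1.5 times. Depth could not be weighed, since TPM carries none.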
